A study of Mus musculus with 6 samples.

Results

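The genes described here are 10 mouse genes that report on or restrain NOTCH signalling: the HES and HEY repressors Hes1, Hes5, Hes6, Hey1, Hey2 and Heyl, the feedback inhibitor Nrarp, and the Deltex genes Dtx1, Dtx3 and Dtx4. They were listed by name, with earlier results of these data known, and all 10 were found among the 40808 gene IDs of the count table. Counts came from 6 libraries of mRNA 3′ ends, 3 without Dox (replicates 4, 5 and 6) and 3 with Dox (replicates 10, 11 and 12), made from leukaemia cells of the spleen of mice that had received a bone marrow transplant. The study's title sets the comparison within the control of NOTCH by UVRAG, ITCH and the ESCRT machinery, and the labels do not say which gene Dox switched on or off, its dose or duration, or the genotype, strain, sex or age of the mice, nor whether each library came from its own mouse. If libraries of a group shared a source, the p-values measure the spread between samples only.

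When a NOTCH receptor is cut, its intracellular part moves to the nucleus, joins the DNA-binding protein RBPJ and a Mastermind coactivator, and switches on target genes. Several of those targets feed back: HES and HEY proteins are basic helix-loop-helix repressors, HES1 recruits Groucho/TLE corepressors and can repress its own gene, NRARP binds the NOTCH and RBPJ complex and limits it, and Deltex proteins are RING-type ubiquitin ligases, some of which bind the intracellular part of NOTCH. In T cell progenitors and T cell leukaemias, Hes1, Dtx1 and Nrarp are widely used as readouts of NOTCH activity.

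Promoters are shown for 4 of the members with a sequence in the table used, because RBPJ recognises the core letters TGGGAA and HES and HEY proteins bind N boxes (CACNAG) and E boxes of the form CACGNG. Windows of 300 bases, from 250 before to 50 after a transcription start, came from RefSeq on GRCm38.p6 and were held for 5 members (Hes5, Hes6, Hey2, Nrarp and Dtx1), with 2 windows for Hes6. They are written 5′ to 3′ on the strand of the gene, and capitals mark every match to any of the 3 motifs on either strand. CACGAG fits both the N box and the E box, and CACGTG reads the same on both strands.
Hes5 (chr4:154960673-154960972, plus strand): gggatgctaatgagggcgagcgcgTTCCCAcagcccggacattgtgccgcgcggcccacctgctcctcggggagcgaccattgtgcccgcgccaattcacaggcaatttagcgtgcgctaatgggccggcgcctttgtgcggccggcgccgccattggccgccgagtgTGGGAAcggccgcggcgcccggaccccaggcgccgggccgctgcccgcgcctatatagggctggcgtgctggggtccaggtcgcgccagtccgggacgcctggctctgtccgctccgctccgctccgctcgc
Nrarp (chr2:25180508-25180807, plus strand): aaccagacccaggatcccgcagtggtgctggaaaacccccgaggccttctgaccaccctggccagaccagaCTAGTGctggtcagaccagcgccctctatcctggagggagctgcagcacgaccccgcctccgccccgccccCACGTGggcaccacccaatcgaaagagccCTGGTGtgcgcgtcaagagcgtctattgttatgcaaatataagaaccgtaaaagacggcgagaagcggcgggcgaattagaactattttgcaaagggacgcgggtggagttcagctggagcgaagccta
Dtx1 (chr5:120711620-120711919, minus strand): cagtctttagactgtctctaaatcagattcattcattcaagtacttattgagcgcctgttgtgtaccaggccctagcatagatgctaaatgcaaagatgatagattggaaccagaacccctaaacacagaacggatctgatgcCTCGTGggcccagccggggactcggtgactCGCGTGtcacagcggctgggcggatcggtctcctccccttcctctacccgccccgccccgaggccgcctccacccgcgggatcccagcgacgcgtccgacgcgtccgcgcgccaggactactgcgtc
Hes6, upstream start (chr1:91413989-91414288, minus strand): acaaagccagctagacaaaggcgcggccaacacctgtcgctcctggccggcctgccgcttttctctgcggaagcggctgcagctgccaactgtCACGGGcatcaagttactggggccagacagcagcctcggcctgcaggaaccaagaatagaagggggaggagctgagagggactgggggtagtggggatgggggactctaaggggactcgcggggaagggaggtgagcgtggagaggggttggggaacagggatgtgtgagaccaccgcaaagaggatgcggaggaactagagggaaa

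The Hes5 window held the RBPJ core in both orientations, TTCCCA at position -226 and TGGGAA at position -82, counted at the first base of the match from the start. The Hey2 window (chr10:30842734-30843033, minus strand) also held both orientations, at positions -207 and -3. No RBPJ core was found in the windows of Nrarp, Dtx1 or Hes6, which says only that these letters are not in those windows. Nrarp held N boxes at positions -179 and -79 and the palindromic E box CACGTG at position -108. Dtx1 held CTCGTG, which fits both motifs, at position -107 and the E box CGCGTG at position -77. Hes6 held 1 E box, at position -157, in the upstream window and N boxes at positions -237 and 16 in the other. Over all 32851 promoter windows of that length, 25.6% held an RBPJ core at least once and 3.79% held 2 or more, 42.5% held an N box and 27.5% held an E box. The matches are a description of sequence and were not tested against expression.

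Levels are given as normalized CPM, the counts of a gene brought to a fixed library total with factors that correct for composition (TMM), and differences as log2 fold changes of Dox over no Dox from a test fitted to all genes together (the edgeR quasi-likelihood test, with p-values adjusted for the number of genes). Of the 10 members, 8 had enough counts to be tested and 6 differed between the groups at an edgeR adjusted p under 0.05. Hes1, Hes6, Heyl, Nrarp and Dtx1 fell with Dox, Dtx4 rose, and Hes5 and Dtx3 did not pass the threshold. Hey1 and Hey2 were too low to test. These libraries differed in a large part of all genes: 45.6% of 14110 tested genes were called in either direction, 22.1% lower and 23.6% higher with Dox, and 59.6% had groups that did not overlap. Among the tested members 75% were called and 75% had groups that did not overlap. The median log2 fold change was -1.45 over the 8 tested members and 0.07 over all tested genes.

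**Figure D1:**
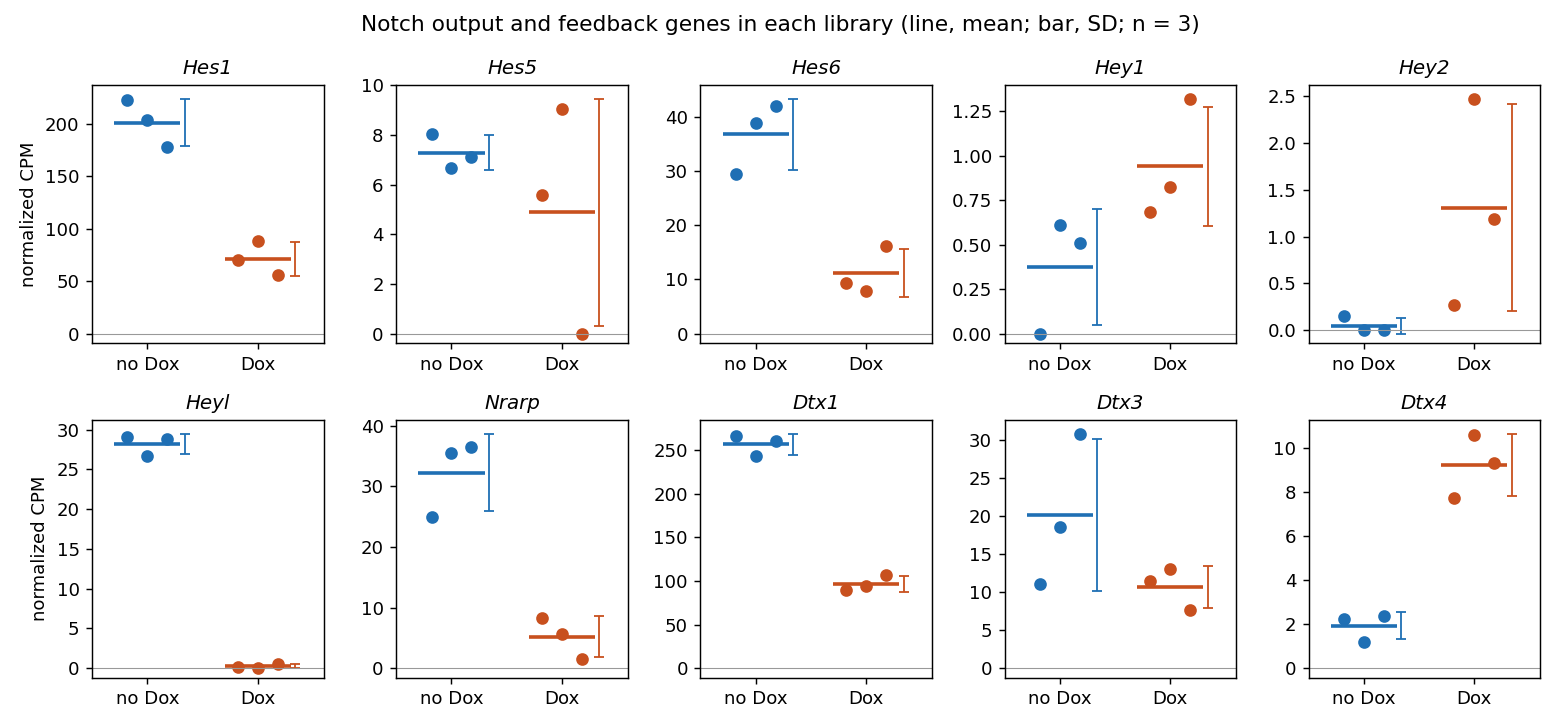
Normalized CPM of each of the 10 genes in every library, without Dox (blue, replicates 4, 5 and 6 from left to right) and with Dox (orange, replicates 10, 11 and 12). Lines mark means and bars 1 SD (n = 3 per group), each panel has its own scale, and Heyl sits between 26.8 and 29.1 CPM without Dox and at or below 0.527 CPM with Dox.

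Several measures of the libraries moved with the groups. Total counts ran from 5541486 to 8725767, and 3 counts, taken as the limit of detection for counting error only, equalled 0.309 to 0.608 CPM. The biological coefficient of variation was 0.190 without Dox and 0.515 with Dox, and tested genes with 0 counts in 1 library but at least 10 in both others of its group numbered 2 to 40 per library without Dox and 120 to 276 with Dox. Y-linked genes had 545 to 801 counts without Dox and 0 with Dox, and Xist had 193 to 324 and 3347 to 5669 counts, so that Dox and the sex of the cells cannot be told apart. The 15 T cell markers summed to 3184 to 3479 CPM without Dox and 299.7 to 389 CPM with Dox (13 lower, none higher, Cd2 and Cd5 not called), the 12 B cell markers to 40.4 to 47.8 and 2404 to 2560 CPM (12 higher), and the 10 neutrophil markers to 53.6 to 69.1 and 2260 to 2408 CPM (10 higher, with Ly6g at 0 counts in all libraries without Dox). T cell markers were present in every library labelled as leukaemia, and B cell and neutrophil markers were present in every library with Dox. In such bulk RNA, fewer cells of a type and less RNA per cell cannot be told apart, and the part that cell makeup has in the changes below was not tested.

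Hes1, the repressor most often followed as a NOTCH target in T cell leukaemia (Entrez gene 15205, GRCm38.p6 chr16:30065357-30067796), had 222.6, 203.3 and 177.8 normalized CPM without Dox and 69.8, 88.4 and 55.5 CPM with Dox. These values rest on 1003 to 1492 counts without Dox and 421 to 859 with Dox. Every library without Dox was above every library with Dox, and the mean was 2.83-fold lower with Dox, at 71.2 ± 16.5 against 201.2 ± 22.5 CPM (SD, n = 3 each). The log2 fold change was -1.50 ± 0.20 (SE; edgeR adjusted p = 0.00027). Of all tested genes, 65.5% changed by less than Hes1 in either direction.

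Hes6, a family member known to oppose Hes1 protein in neural cells (chr1:91411483-91414038), had 29.4, 38.9 and 41.9 CPM without Dox and 9.25, 7.92 and 16.2 CPM with Dox. The groups did not overlap, and replicate 12 was the highest of the libraries with Dox. The log2 fold change of Hes6 was -1.72 ± 0.33 (SE), with an edgeR adjusted p of 0.0021. Hes1 was at its lowest in replicate 12, so the Dox libraries did not rank alike for these repressors.

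Hes5, a NOTCH target best known from neural progenitors (chr4:154960626-154962372), is the member whose printed promoter held both RBPJ cores. Its level was 8.06, 6.69 and 7.12 CPM without Dox and 5.58, 9.06 and 0 CPM with Dox, from 41, 88 and 0 counts in replicates 10, 11 and 12. Replicate 12 stood apart: 0 counts allow up to 0.395 CPM there. The groups overlapped, and the log2 fold change of -0.57 ± 1.02 (SE) did not pass the threshold (edgeR adjusted p = 0.677). Without replicate 12 it was -0.01 (edgeR adjusted p = 0.989), and Hes5 was 1 of 137 tested genes at 0 in replicate 12 with at least 10 counts in both other Dox libraries.

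Among the HEY repressors, which act in blood vessels, heart and muscle, Heyl (chr4:123233556-123249870) was the only tested member. It had 195, 132 and 170 counts without Dox (29.1, 26.8 and 28.8 CPM) and 1, 0 and 4 counts with Dox. Heyl was steady without Dox, with a coefficient of variation of 4.54%, and near or under the limit of detection in each library with Dox. The ratio of pooled levels, no Dox over Dox, was 139.7 (95% exact interval 59.5 to 432.3, counting error only). The fitted log2 fold change was -6.98 ± 0.65 (SE; edgeR adjusted p = 2.6e-05), larger in size than that of 98.9% of tested genes, and it was -8.53 without replicate 12, which held 4 of the 5 counts with Dox, and -6.35 without replicate 11, which held none.

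Hey1 (chr3:8663359-8667038) had 0, 3 and 3 counts without Dox and 5, 8 and 10 with Dox. Hey2 (chr10:30832359-30842783) had 1, 0 and 0 counts without Dox and 2, 24 and 9 with Dox. The groups did not overlap for either gene, at levels of 0 to 2.47 CPM, but with no low-count filter neither passed the threshold (edgeR adjusted p = 0.738 for Hey1 and 0.295 for Hey2). Endothelial markers summed to 107.1 to 124.3 CPM without Dox and 213.5 to 271.2 CPM with Dox, with 4 of 9 tested genes higher, none lower, and Emcn at 0 or 1 counts in each of the 6 libraries. Stromal and pericyte markers summed to 375 to 423 and 356 to 599 CPM, with 4 of 9 higher, 2 lower and Tagln at 0 in every library; the part of these cells in the HEY values was not tested.

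Nrarp, a small ankyrin-repeat protein that limits NOTCH signalling (Entrez gene 67122, chr2:25180758-25183339), had 24.9, 35.5 and 36.4 CPM without Dox and 8.30, 5.66 and 1.58 CPM with Dox. Counts were 167 to 215 and 12 to 61. The groups did not overlap, and the Dox libraries were spread widely, with a coefficient of variation of 65.3% against 19.8% without Dox. The mean was 6.23-fold lower with Dox and the log2 fold change was -2.63 ± 0.50 (SE; edgeR adjusted p = 0.0020). Leaving out the lowest library, replicate 12, gave -2.23 and leaving out replicate 10 gave -3.15, and both values passed the threshold.

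Dtx1, the Deltex ligase that is itself a NOTCH target in lymphoid progenitors (Entrez gene 14357, chr5:120680203-120711867), was the most abundant member in both groups. It had 266.2, 242.6 and 260.1 CPM without Dox and 89.5, 93.7 and 106.6 CPM with Dox, from 658 to 1784 counts. Replicates lay close together and the groups were far apart. The log2 fold change was -1.41 ± 0.16 (SE; edgeR adjusted p = 7.2e-05), a 2.65-fold lower mean with Dox.

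Dtx4, another Deltex ligase (chr19:12466329-12502179), went the other way. It had 15, 6 and 14 counts without Dox (2.24, 1.22 and 2.37 CPM) and 57, 103 and 71 counts with Dox (7.76, 10.6 and 9.36 CPM). All libraries with Dox were above all without it, and the mean was 4.76-fold higher. The log2 fold change was 2.23 ± 0.55 (SE; edgeR adjusted p = 0.0082).

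Dtx3, a Deltex protein that lacks the NOTCH-binding WWE domains (chr10:127190373-127196498), had 11.04, 18.6 and 30.9 CPM without Dox and 11.4, 13.1 and 7.64 CPM with Dox. The libraries without Dox were widely spread and the groups overlapped. The log2 fold change was -0.91 ± 0.42 (SE; edgeR adjusted p = 0.101), and without replicate 4 it was -1.24 with an edgeR adjusted p of 0.048. The non-coding gene F420014N23Rik overlaps the start of Dtx3 on the opposite strand and had 9, 8 and 14 counts without Dox and 90, 114 and 61 with Dox. The overlap holds the 5′ ends of both genes. Their 3′ ends, where these libraries read mRNA, lie outside it, at 127190373 for Dtx3 and 127202643 for F420014N23Rik. Whether the counting used strand is not given in the sources used here, and mixing of reads of this pair was not tested.

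**Figure D2:**
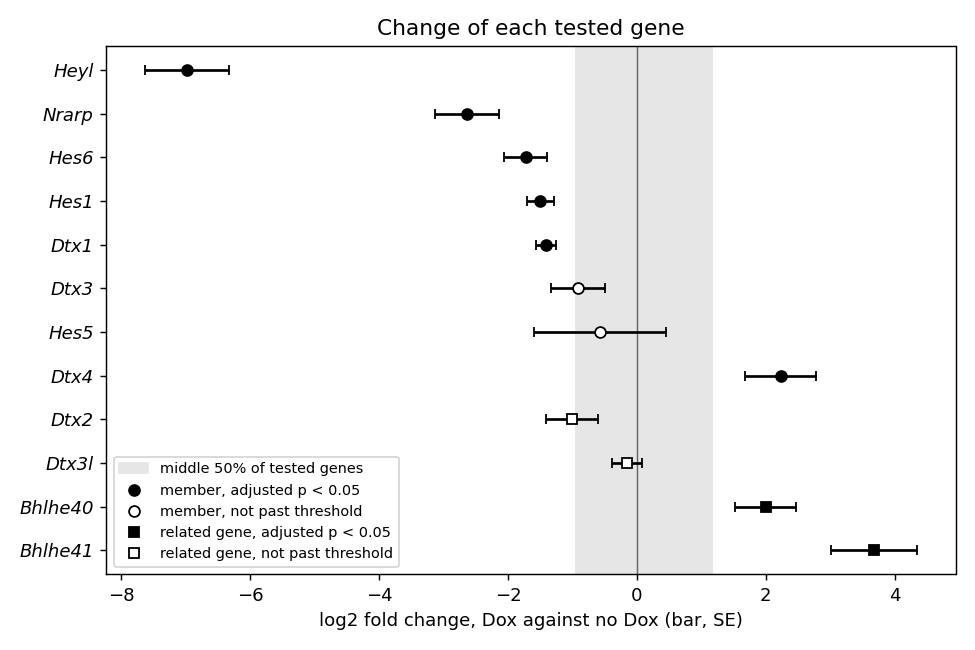
Log2 fold change, Dox against no Dox, of the 8 tested members (circles) and 4 tested relatives (squares), with SE bars; filled symbols passed the threshold and the grey band holds the middle 50% of all tested genes, -0.95 to 1.16. Heyl lies farthest to the left at -6.98, and Dtx4, Bhlhe40 and Bhlhe41 are the filled symbols to the right of 0.

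The closest relatives of the members were also examined. Bhlhe40 and Bhlhe41, repressors related to the HES family that respond to many stimuli, rose by log2 fold changes of 2.0 ± 0.47 and 3.68 ± 0.66 (SE; edgeR adjusted p = 0.0066 and 0.0014), to 11.4 and 11.2 CPM with Dox. Dtx2 went from 12.8 ± 2.0 to 6.38 ± 1.93 CPM (SD, n = 3 each), groups that did not overlap, but the change missed the threshold (edgeR adjusted p = 0.066). Dtx3l, which works with the ADP-ribosyltransferase PARP9, was 45.8 ± 10.5 and 41.4 ± 7.1 CPM (SD, n = 3 each; edgeR adjusted p = 0.636). Hes2 had 12 counts in replicate 11 and at most 3 elsewhere, Hes7 had 9, 0 and 14 counts with Dox and at most 3 without, and Hes3 and Helt had 0 counts in all libraries.

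Because the kit reads 1 end of each mRNA, CPM can be compared between genes without scaling by length. Summed over the 10 members, the level was 593.8, 574.1 and 585.9 CPM without Dox and 202.8, 231.7 and 199.9 CPM with Dox. Dtx1 and Hes1 made up most of this sum in both groups. Dtx1 took 42.3% to 44.8% of it without Dox and 40.4% to 53.3% with Dox, and Hes1 took 30.4% to 37.5% and 27.8% to 38.2%, ranges that overlapped. Heyl took 4.66% to 4.92% of the summed level without Dox and 0% to 0.264% with Dox. Dtx4 took 0.212% to 0.405% and 3.83% to 4.68%.

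**Figure D3:**
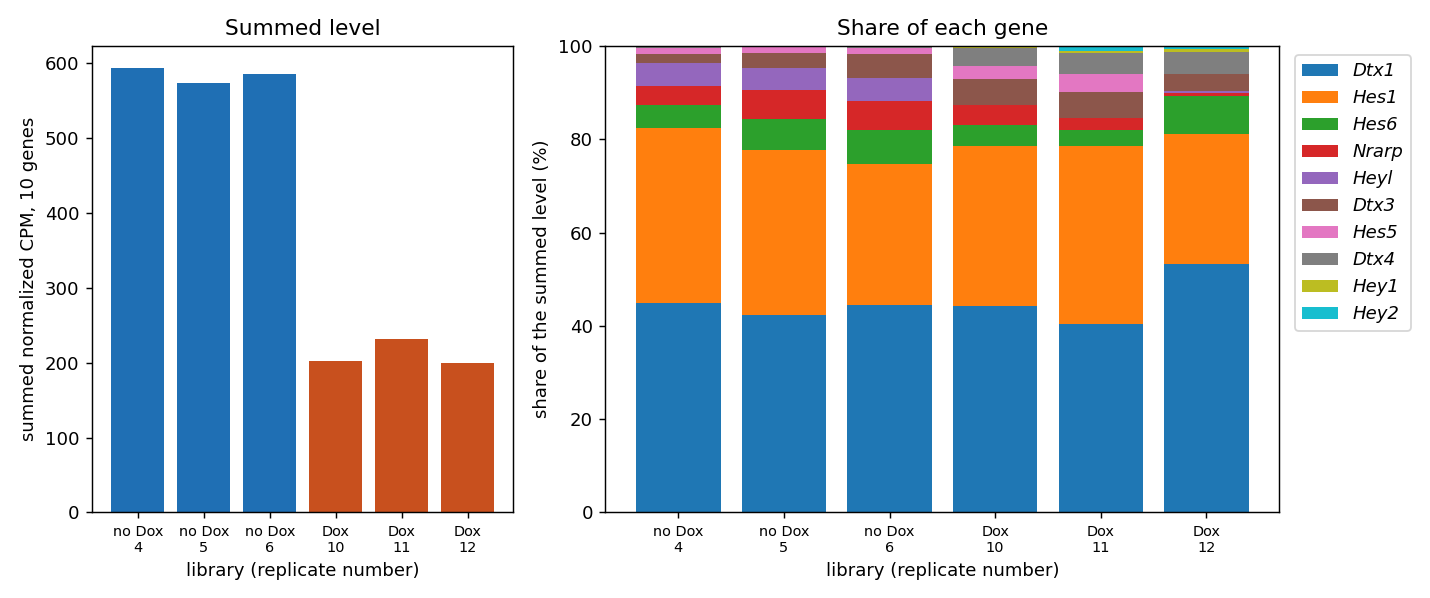
Left, summed normalized CPM of the 10 genes in each library; right, the share of each gene in that sum, in percent. The summed level was 574.1 to 593.8 CPM without Dox and 199.9 to 231.7 CPM with Dox, while Dtx1 and Hes1 kept the largest shares in every library.

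By mean CPM without Dox the order was Dtx1, Hes1, Hes6, Nrarp, Heyl, Dtx3, Hes5, Dtx4, Hey1 and Hey2. Dtx1 lay above Hes1, and Hes1 above Hes6, in every library. From Hes6 through Nrarp and Heyl to Dtx3, each gene overlapped with the next in this order, between 11.04 and 41.9 CPM, although Hes6 lay above Heyl in every library. Hey1 and Hey2 overlapped as well. With Dox, Dtx1 and Hes1 again came first and second without overlap, and Hes6, Dtx3, Dtx4, Nrarp and Hes5 had ranges that overlapped with at least 1 neighbour between 0 and 16.2 CPM. Heyl had the lowest mean with Dox but overlapped with Hey2, and both had values around the limit of detection.

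Levels were also set against Notch1, the receptor gene itself, and against the summed T cell markers, for the 6 members with more than 3 counts in every library. This filter left out Hes5, Hey1, Hey2 and Heyl, the last through its 1, 0 and 4 counts with Dox. Notch1 went from 113.2 ± 5.7 to 12.2 ± 2.0 CPM (SD, n = 3 each; edgeR adjusted p = 3.3e-06), a larger fold than that of Hes1 or Dtx1. The log2 fold change of Notch1, -3.21, was smaller in size than that of Heyl, -6.98, for which no ratio was formed. The log2 ratio of Hes1 to Notch1 was 0.83 ± 0.12 in libraries without Dox and 2.54 ± 0.22 in those with it (SD, n = 3 each), and that of Dtx1 to Notch1 was 1.18 ± 0.13 and 3.0 ± 0.27. The ratio therefore differed by 1.71 for Hes1 and 1.82 for Dtx1 on the log2 scale. Against the T cell markers, the log2 ratio of Hes1 was -4.04 ± 0.11 without Dox and -2.32 ± 0.23 with Dox, and that of Dtx1 was -3.69 ± 0.06 and -1.86 ± 0.33 (SD, n = 3 each). In both cases every library with Dox was above every library without it, as was so for 93.6% of 11466 genes with more than 3 counts in every library when set against Notch1 and for 94% of 11452 when set against the T cell markers. Such ratios therefore describe how far Notch1 and the T cell markers fell and show nothing particular to Hes1 or Dtx1.

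The ratios of Nrarp depended on single libraries. Its log2 ratio to Notch1 was -1.83 ± 0.33 in libraries without Dox and -1.52 ± 1.24 in those with it (SD, n = 3 each), with overlapping groups, and replicate 12 at -2.84 was the lowest of all libraries (exact two-sided permutation p = 0.7). The difference between groups was 0.31, and it was 0.97 without replicate 12, where the groups did not overlap, and -0.27 without replicate 10. Whether Nrarp differed from Hes1 or Dtx1 was not tested. Of 12 ratios examined, 10 had groups that did not overlap, each higher with Dox, with an exact two-sided permutation p of 0.1, the smallest 3 against 3 libraries can give, and 0.12 after Benjamini-Hochberg adjustment over the 12. The 2 that overlapped were those of Nrarp. None passed a threshold of 0.05, which this design cannot reach, and their share is near that of all genes.

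**Figure D4:**
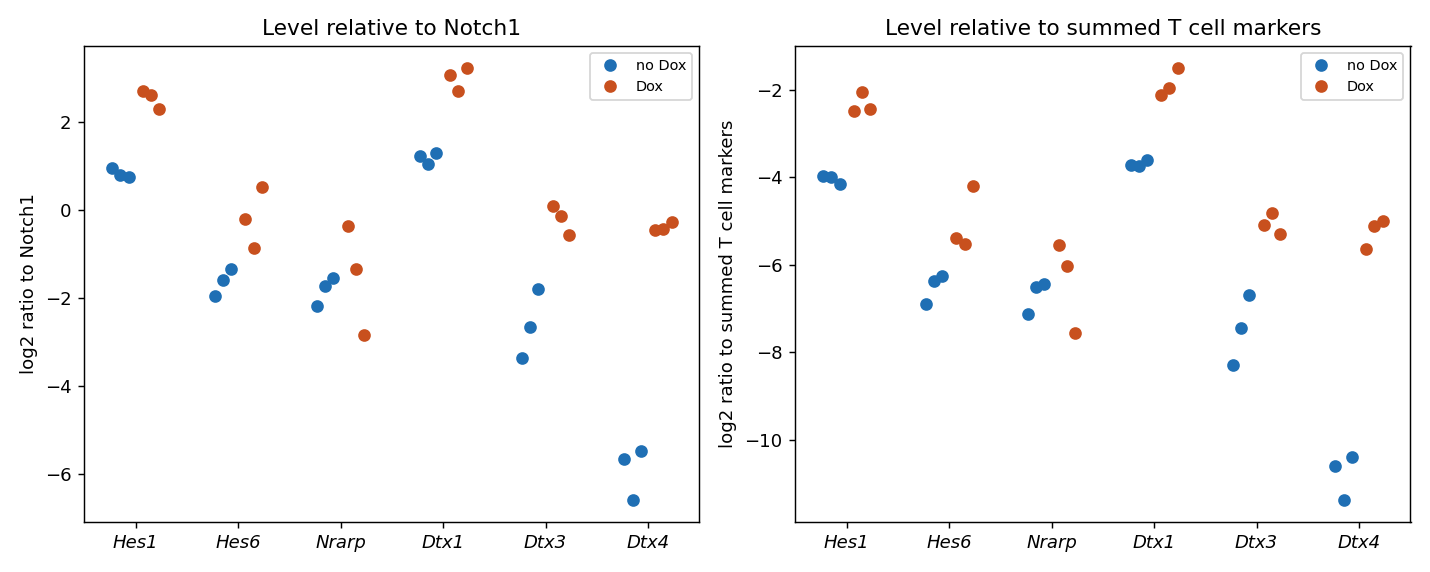
Log2 ratio of each member to Notch1 (left) and to the summed level of 15 T cell markers (right), 1 point per library, no Dox in blue and Dox in orange. The colours separate for Hes1, Hes6, Dtx1, Dtx3 and Dtx4 and mix for Nrarp, whose ratio to Notch1 ran from -2.84 to -0.37 with Dox.

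The rest of the pathway was read from lists of NOTCH genes, 90 distinct genes of which 79 were tested. Dox libraries had higher levels of 20 genes and lower levels of 23, and 36 were not called, so that 54.4% differed against 45.6% of all genes. Among receptors and ligands (7 tested, 3 higher, 2 lower), Notch1 and Notch3 fell, Notch3 from 19.0 ± 1.6 to 5.25 ± 4.15 CPM (SD, n = 3 each; edgeR adjusted p = 0.015). The ligand genes Jag1 and Dll1 and the receptor gene Notch4 rose, Jag1 from 1.90 ± 1.12 to 18 ± 3.6 CPM (SD, n = 3 each; edgeR adjusted p = 0.00081). Notch2 was 26.3 ± 3.7 and 28.2 ± 3.9 CPM (SD, n = 3 each; edgeR adjusted p = 0.758).

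Among genes of receptor cleavage and sugar modification, 4 of 15 were higher and 3 lower. Lfng, a Fringe enzyme that tunes which ligands a NOTCH receptor answers, rose by a log2 fold change of 2.90 ± 0.49, while that of its relative Mfng was -1.27 ± 0.29 (SE; edgeR adjusted p = 0.00098 and 0.0056). The fucosyltransferase gene Pofut1 also rose, with a log2 fold change of 1.71, whereas the gamma-secretase subunits Aph1a and Psenen fell by 1.05 and 0.55 on the log2 scale (edgeR adjusted p = 0.0017, 0.016 and 0.030).

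In the transcription complex, 2 of 8 genes were higher and 1 lower. Rbpj itself had 80.9 ± 9.9 CPM in the absence of Dox and 99.9 ± 2.9 in its presence (SD, n = 3 each; edgeR adjusted p = 0.171). The acetyltransferase gene Ep300 rose by a log2 fold change of 1.63 ± 0.25 (SE; edgeR adjusted p = 0.00058) and Maml2, a Mastermind coactivator, by 2.56 ± 0.20 (SE; edgeR adjusted p = 8.4e-06), whereas Kat2a fell by 0.93 on the log2 scale (edgeR adjusted p = 0.048). Of 13 RBPJ corepressor genes, 4 were higher, among them L3mbtl3, Ctbp2 and Spen at log2 fold changes of 1.19, 1.26 and 0.89, and 2 were lower, Hdac2 and Hdac3, at -0.97 and -1.08 (edgeR adjusted p = 0.0035, 0.0061, 0.012, 0.0029 and 0.026).

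HES1 acts through Groucho/TLE corepressors, and HES and HEY proteins can pair with other helix-loop-helix factors. Of 4 tested TLE genes only Tle4 was called, rising from 11.5 ± 4.1 to 76.6 ± 4.7 CPM (SD, n = 3 each; edgeR adjusted p = 4.6e-05), while Tle3 was 103.7 ± 12.5 and 76 ± 12 CPM (edgeR adjusted p = 0.078). Of 7 Id and E protein genes, Id4 and Tcf4 rose and Id3 and Tcf12 fell. Id3, an inhibitor of E proteins, went from 293.7 ± 10.6 to 16.6 ± 9.5 CPM (SD, n = 3 each; edgeR adjusted p = 4.7e-05), and Tcf12 from 266.9 ± 6.1 to 79.4 ± 12.5 CPM (SD, n = 3 each; edgeR adjusted p = 3.5e-05).

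Of 15 other genes reported as NOTCH targets in T cells, 12 were lower, 1 higher and 2 not called, and their median log2 fold change was -1.77. The T lineage factor Gata3 fell by 5.59 on the log2 scale, Myc fell by 3.89 and Bcl11b fell by 2.82 (edgeR adjusted p = 5.4e-07, 1.9e-06 and 3.4e-06), and Rhou rose by a log2 fold change of 4.38 ± 0.73 (SE; edgeR adjusted p = 0.00089). Bcl11b and Tcf7 are in both this list and the T cell marker list. Of the 15 T cell markers, 13 were lower, with a median log2 fold change of -3.23. Over all tested genes 22.1% were lower and 23.6% higher, with a median of 0.07. Genes that HES1 is reported to repress did not move in 1 direction: of 7 tested, Cyld rose by a log2 fold change of 0.73 (edgeR adjusted p = 0.020), Bbc3 and Cdkn1b fell by 4.45 and 1.56 on the log2 scale (edgeR adjusted p = 5.8e-05 and 0.00019), and 4 were not called.

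**Figure D5:**
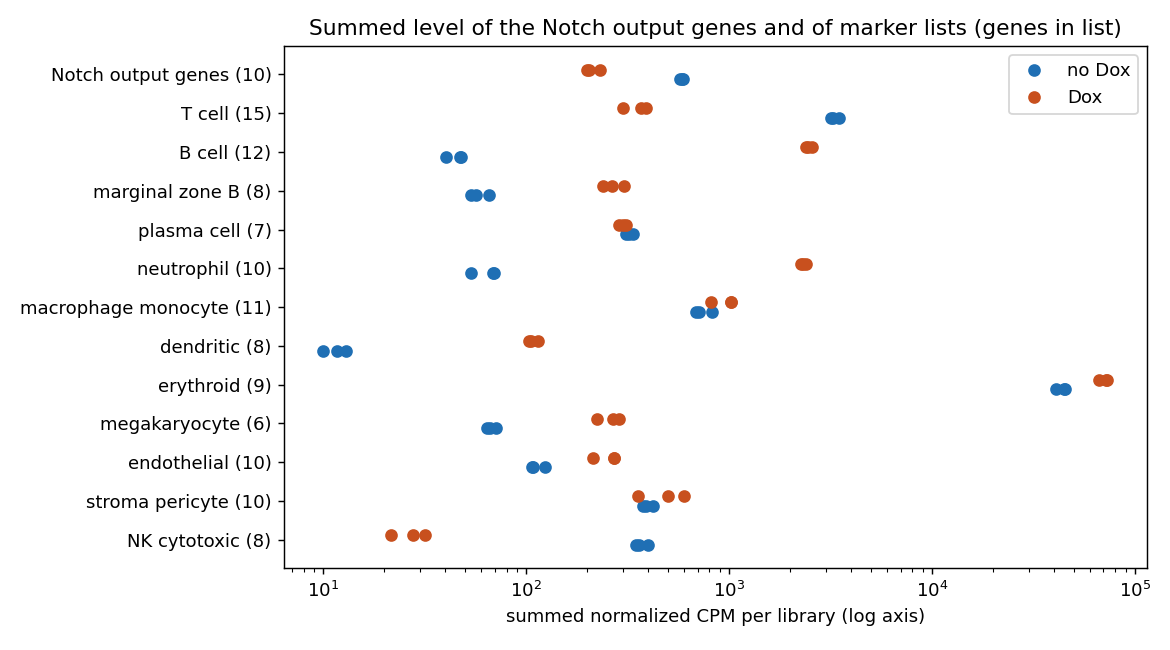
Summed normalized CPM of the 10 Notch output genes and of 12 cell type marker lists in each library, on a log axis, with the number of genes of each list in brackets. The Notch output genes and the T cell markers are lower with Dox, the B cell markers move from 40.4 to 47.8 CPM up to 2404 to 2560 CPM, and plasma cell markers sit at 285.8 to 336.8 CPM over both groups.

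The remaining marker lists gave these levels. Marginal zone B cell markers summed to 53.3 to 65.4 CPM without Dox and 240.4 to 301.7 CPM with Dox (4 of 7 tested higher, none lower), dendritic cell markers to 10 to 13 and 102.7 to 113.8 CPM (6 of 6 higher, Cd209a at 0 counts with Dox and at most 3 without), and megakaryocyte markers to 63.8 to 71.0 and 222.4 to 285.6 CPM (5 of 5 higher). Cr2, which is also in the B cell list, made up 148.4 to 201.3 CPM of the marginal zone sum with Dox, and the other 7 genes summed to 52.1 to 65.4 CPM without Dox and 92 to 100.4 CPM with Dox. Cytotoxic cell markers summed to 349 to 399 CPM without Dox and 21.5 to 31.8 CPM with Dox (2 of 5 tested higher, 1 lower), with Gzma at 0 counts in all libraries with Dox. Gzma alone made up 341 to 395 CPM of the sum without Dox, and the other 7 genes summed to 3.56 to 8.31 CPM without Dox and 21.5 to 31.8 CPM with Dox. Plasma cell markers (3 of 6 higher, 2 lower) and monocyte and macrophage markers (2 of 11 higher, 3 lower) summed to 309.7 to 336.8 and 285.8 to 310.8 CPM and to 686.3 to 819.8 and 810.1 to 1025 CPM, and erythroid markers to 40839 to 45209 and 66458 to 73223 CPM (4 of 9 higher, 1 lower). Hba-a1 alone made up 29227 to 31733 CPM of the erythroid sum without Dox and 58130 to 59961 CPM with Dox, and the other 8 genes overlapped between groups, at 11612 to 14227 and 8328 to 14077 CPM.

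For each called member, the 2 tested genes with the most similar pattern over the 6 libraries were found among genes of like abundance, as the smallest root mean square difference of centred log2 CPM. For Hes1 these were Lmo4 and Arf6 (0.074 and 0.096), for Dtx1 Cd24a and Hmgb3 (0.074 and 0.087), and for Hes6 Socs6 and Dnajb1 (0.153 and 0.161). For Nrarp they were Wdyhv1 and Snhg4 (0.241 and 0.245), for Heyl C330026H20Rik and Cd163l1 (0.277 and 0.317), and for Dtx4 Atp8b1 and Gcnt2 (0.109 and 0.162). With 2 groups, most of each pattern is the difference between the groups, and the lists say nothing of shared control.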

How the data were processed

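RNA was measured in 6 libraries made with the QuantSeq forward 3′ kit, per the labels' protocols. The authors deposited raw counts per Entrez gene ID, 1 column per library; the submitters' processing notes name STAR, featureCounts and GRCm38, and versions, annotation, strand setting and use of molecular identifiers are not given in the sources used here. Counts are therefore treated as reads, so intervals and floors cover counting error only. Symbols came from RefSeq (GRCm38.p6) for 39374 of 40808 IDs, and rows without one held 0.357% to 0.619% of counts.

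Genes passing filterByExpr (minimum count 10, minimum total 15) were TMM-scaled and compared by the quasi-likelihood F-test of edgeR 4.0.16 in R 4.3.3 with the 2 groups as its only term; adjustment was by Benjamini-Hochberg over all tested genes (threshold 0.05). SEs derive from the fold change and F statistic. For normalized CPM, each count was divided by the TMM-adjusted library total. Single ratios were compared by exact permutation. The test was checked on simulated counts. Members, lists and tests were chosen with earlier results of these data known. The naming rule took all members, relatives with at least 10 counts in a library, up to 3 genes per direction and list with the smallest adjusted p, the 2 genes most alike to each called member among those within 1 log2 CPM (pseudocount 0.5 CPM), and markers at 0 in a whole group; other genes, such as Rbpj, Notch2 and Tle3, were named after their values were seen, and some genes that the rule takes are not reported here. Of 212 distinct listed symbols, only Ahsp was not matched. Alternatives used RLE, upper-quartile or no scaling factors, other filters, DESeq2 1.42.0, limma-voom (limma 3.58.1), a threshold of 0.01 and leaving out single libraries or gene classes.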

Additional observations from a re-analysis of the deposited data

How the results depend on the processing

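No paired analysis was possible because replicates 4, 5 and 6 occur only without Dox and 10, 11 and 12 only with it. The calls of Hes1, Hes6, Heyl, Nrarp, Dtx1 and Dtx4 kept their direction and their side of the threshold in each alternative that tested them, with edgeR, DESeq2 or limma adjusted p-values of at most 0.049, the highest being that of Dtx4 without replicate 5. Requiring at least 10 counts in every library left 5 members to test and 0 higher with Dox, since Dtx4 had 6 counts in replicate 5. Dtx3 passed the threshold with no low-count filter (log2 fold change -1.02, edgeR adjusted p = 0.042; 24.0% of all 27308 genes called) and without replicate 4 (-1.24, 0.048), and ranged from -1.24 to -0.55 when single libraries were left out. Hes5 ranged from -1.40 to -0.01 in those fits and was -2.08 with limma-voom (adjusted p = 0.194), never past the threshold. The log2 ratio of Nrarp to Notch1 differed by 0.31 between groups and by -0.27 to 0.97 with single libraries left out, and that to the T cell markers by 0.32 and by -0.10 to 0.91, the lowest values being without replicate 10 and the highest without replicate 12; the number of ratios without overlap ran from 10 to 12. Genes higher with Dox numbered 3324, and 2200 at an adjusted p under 0.01, because a stricter threshold calls fewer. Higher genes were 51.6% of those called with TMM factors and 64.3% with library size only, which shifted the median of all genes by 0.31. Weighting libraries by group in limma-voom, chosen after seeing the data, called the same number of members, 6. Counts of 3 or fewer in at least 1 library limit the values of Hes5, Heyl, Hey1 and Hey2.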
